A study of Rattus norvegicus with 6 samples.

Results

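Voltage-gated ion channel genes and their close relatives were examined in rat neonatal cardiomyocytes after DYRK1A knockdown. The genes were chosen by name, as every row of the count table whose symbol belongs to the potassium channel (Kcn), sodium channel (Scn), calcium channel (Cacna, Cacnb, Cacng) or pacemaker channel (Hcn) families. This rule took 137 of the 32883 annotated genes and of the 43035 features in the table. Of these, 77 had at least 10 counts in 3 or more of the 6 libraries, and 76 of them also passed the low-count filter of the test. The gene left out by the filter was Kcnk7, a silent member of the two-pore-domain family, at 11, 12 and 10 counts under si-NC and at 5, 2 and 3 under si-DYRK1A. Scn2b and Kcnk7 reached the minimum only through the si-NC group and Scn10a only through the si-DYRK1A group. Kcnd2 was not analysed here, and Kcnn2 was listed under 2 identifiers, only 1 of which reached the minimum.

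Each heartbeat starts with an action potential, in which sodium channels depolarize the membrane, L-type calcium channels hold the plateau and admit the calcium that triggers contraction, and potassium channels restore the resting potential. Most of these channels are built from a pore-forming alpha subunit and auxiliary subunits that set its gating and its delivery to the membrane. In neonatal heart cells, inward rectifier, pacemaker and T-type calcium channels also shape the resting potential and spontaneous beating.

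RNA was taken from primary cardiomyocytes of Sprague-Dawley rats on postnatal day 1, grown in serum-containing DMEM. All cells received an siRNA, either a scrambled control (si-NC, 3 libraries) or an siRNA against the kinase DYRK1A (si-DYRK1A, 3 libraries), and were cultured for 48 h. The labels call the 3 libraries of a group biological replicates, whereas the number of hearts pooled in each is not stated. The libraries held 10325074 to 11921772 counts, of which 8267 to 9327, or 0.0762% to 0.0801%, fell on the 137 channel genes. Cardiomyocytes had been separated from faster attaching cells by a single attachment step, so that other heart cells can remain. Actc1, the cardiac actin, was listed at a mean of 6659 FPKM (fragments per kilobase of gene and per unit of library size) in the si-NC libraries and the fibroblast collagen Col1a1 at 2447 FPKM. The cardiomyocyte markers Tnni3, Myh6 and Myh7 were listed at 0. An unannotated transcript with myosin domains spans both myosin genes and 5 others and had 1257 to 1616 counts per library, and the transcript over Tnni3 also spans Dnaaf3, so that neither gives the level of a single marker. The annotated Dyrk1a gene was counted 3, 0 and 1 times under si-NC and 2, 1 and 0 times under si-DYRK1A. An unannotated transcript spanning it had 777, 919 and 968 against 971, 851 and 944 counts, so that the table does not show lower Dyrk1a counts in the libraries labelled si-DYRK1A. DYRK1A protein is not part of these counts, and all directions given here rest on the labels.

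Levels were compared between genes only on the FPKM scale, which divides by gene length. The ranking and the medians below take annotated genes only. Unannotated transcripts over Kcne4 and Cacna2d1, genes under the count minimum, had means of 25.3 and 15.1 FPKM over all libraries. Among the annotated channel genes described here, Hcn2, a pacemaker channel, had the highest level, at 11.5 ± 1.34 FPKM over all libraries (SD, n = 6). It was followed by Kcnj5, a subunit of the acetylcholine-activated atrial potassium channel, at 11.4 ± 0.779 FPKM. Kcnn4, a calcium-activated potassium channel known from blood cells and fibroblasts, had 10.8 FPKM and Kcnq1, the pore of the slow delayed rectifier, 10.7 ± 0.788 FPKM. The levels from Hcn2 to Kcnq1 differed by less than the SD of Hcn2. The next were Kcnk3 (TASK-1, a background potassium channel) with 9.90 FPKM, Kcnd3 (Kv4.3, a pore of the transient outward current) with 9.34 FPKM, Kcnj8 (Kir6.1, a pore of ATP-sensitive channels) with 8.67 FPKM, Kcnmb4 (a BK channel beta subunit) with 8.63 FPKM and Kcne5 (a modulator of Kcnq1) with 8.16 FPKM. The median of all 77 genes was 1.20 FPKM. By class the median was highest for the inward rectifiers at 5.41 FPKM over 9 genes, apart from the HCN class of 2 genes, and it was 1.86 FPKM for 7 calcium channel alpha1 subunits, 1.21 FPKM for 21 Kv pore subunits and 0.784 FPKM for 6 sodium channel pore subunits.

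**Figure D1:**
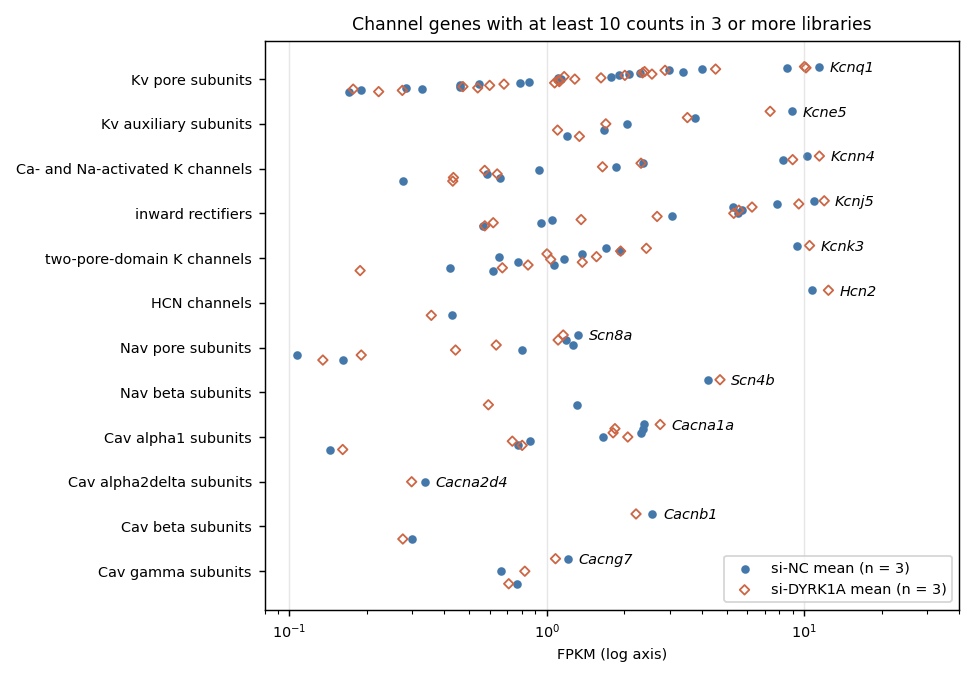
Mean FPKM (log axis) of 76 channel genes with at least 10 counts in 3 or more libraries, by channel class, with filled circles for the si-NC mean and open diamonds for the si-DYRK1A mean (n = 3 libraries each). The highest mean drawn is that of Hcn2 in the si-DYRK1A group, at 12.4 FPKM, and the 2 group means of most genes lie close together.

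Channel genes were called at a rate near that of all features. By the edgeR quasi-likelihood test, with Benjamini-Hochberg adjustment over all 15513 features tested, 3 of the 76 channel genes rose and 6 fell at an adjusted p under 0.05. Over all features tested, 15.2% were called in either direction, 8.03% higher and 7.19% lower. Of the annotated genes tested, 17.3% were called. The median log2 fold change of the 76 genes was 0.01, against 0.00 for all features, with 39 positive and 37 negative values. The groups did not overlap for 26 of the 76 genes, where 31.5% of all features tested showed no overlap. The genes that rose were Kcnk2, Kcnk15 and Kcnd3, and those that fell included Scn1a, Scn4a, Cacna1b, Kcnd1 and Kcnt1. The share called, 11.8%, was near that of all features. DESeq2 also called Scn1a, Scn4a, Kcnk2 and Kcnd3 but not Cacna1b (adjusted p = 0.0749), Kcnd1 (0.102), Kcnt1 (0.128) and Kcnk15 (0.167). By family, potassium channels had 3 higher and 2 lower calls among 52 genes tested with a median of 0.11, calcium channels 0 higher and 1 lower among 13 with a median of -0.12, and sodium channels 0 higher and 3 lower among 9 with a median of -0.25. In these bulk libraries, fewer cells of a type and less RNA per cell cannot be told apart.

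**Figure D2:**
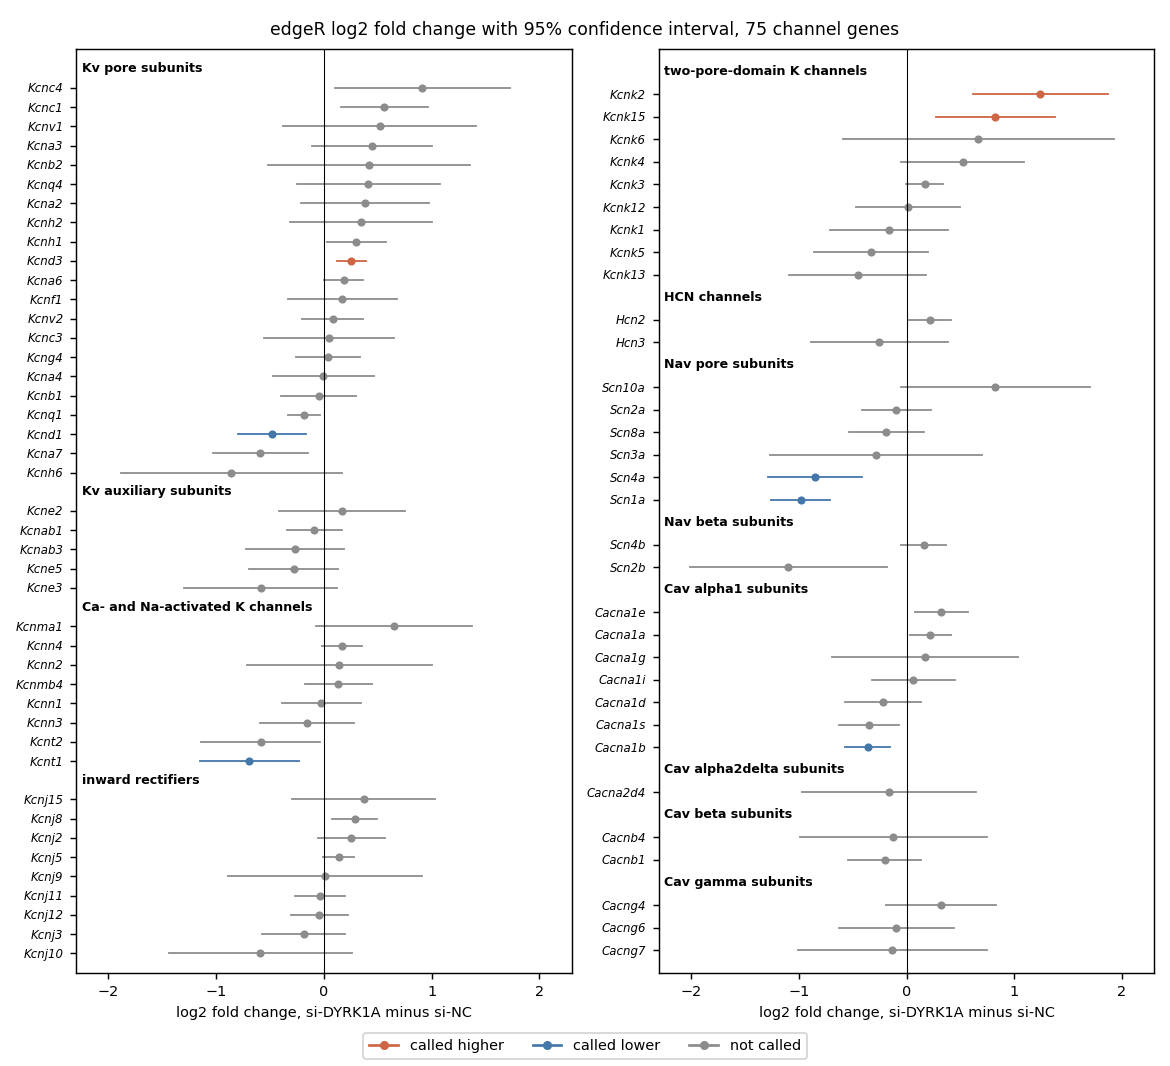
Log2 fold change (si-DYRK1A minus si-NC) of 75 of the 76 channel genes tested, with the 95% confidence interval from the edgeR fit on 3 against 3 libraries, grouped by channel class and coloured by the call at an adjusted p under 0.05. Most intervals cross 0, the called genes do not, and Scn1a and Scn4a lie farthest left of 0 among the called genes.

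Among the 76 channel genes, the smallest adjusted p was that of a sodium channel. Scn1a (Nav1.1, a pore subunit best known from neurons and also found in heart; minus strand of chromosome 3, chr3:52381975-52510507 of Rnor_6.0) had normalized levels of 16.3, 15.5 and 13.5 CPM (counts scaled to library size) in the si-NC libraries and 8.0, 7.25 and 7.62 CPM in the si-DYRK1A libraries. Every si-DYRK1A library was below every si-NC library. On the log2 scale the difference came to -0.98 (edgeR, with SE, the standard error, of 0.133, 95% confidence interval -1.26 to -0.71, adjusted p = 2.04e-05), which is a level 0.506 times that of the control. It passed the threshold with every library left out in turn.

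Scn4a (Nav1.4, the pore subunit of skeletal muscle; minus strand, chr10:94505026-94557764) was lower as well. Its levels were 4.99, 6.0 and 5.77 CPM against 3.52, 3.11 and 2.68 CPM, without overlap. The log2 fold change was -0.85 (edgeR, SE 0.208, adjusted p = 0.00708), and the call held with every library left out.

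The following sodium channel genes did not pass the test. Scn8a (Nav1.6) and Scn2a (Nav1.2) had means of 1.33 and 1.19 FPKM in the si-NC libraries, near the 1.26 FPKM of Scn1a, and log2 fold changes of -0.19 and -0.10 with overlapping groups. Scn4b, a beta subunit, had a log2 fold change of 0.16 (adjusted p = 0.336). Scn2b, another beta subunit, had 18, 14 and 14 counts against 9, 4 and 8, and Scn10a (Nav1.8) had 7, 9 and 8 against 18, 11 and 13 counts. Both genes reached the count minimum only through the group in which they were high, so that a difference in that direction was a condition of their being tested.

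Scn1a lies in a cluster of sodium channel genes on chromosome 3 with Scn3a, Scn2a, Scn9a and Scn7a. Scn7a codes for Nax, an atypical member that responds to extracellular sodium, and its annotated gene (chr3:52777214-52849907) had 0 counts in every library. An unannotated transcript of the same strand (chr3:52775665-52877284), whose file annotation names an ion transport domain and a sodium transport-associated domain, had 13.0, 11.4 and 11.6 CPM in the si-NC libraries and 6.68, 5.56 and 7.88 CPM in the si-DYRK1A libraries. It was lower without overlap, with a log2 fold change of -0.84 (edgeR, SE 0.156, adjusted p = 0.000671). The call held with every library left out. Scn7a falls outside the rule for named genes and was picked out after its values were seen. Within the cluster, Scn2a (-0.10), Scn3a (-0.28, with 4 to 21 counts per library) and Scn9a (0 to 7 counts, not tested) did not share a called difference.

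Several sodium channels are also found in neurons, glia and other cells of the heart, and the marker genes of those cells were set beside them. Of 7 neuron markers, 3 were tested and Tubb3 alone fell, with a log2 fold change of -0.72, and the summed level of the list was 31.4 to 34.7 FPKM against 18.3 to 23.3 FPKM. Almost all of that sum was Tubb3 (31.1 against 18.8 FPKM), which other growing cells express too. Prph had 0 counts in all libraries, Th had 0 to 2, and Snap25 had 0 to 9. Of 5 Schwann cell markers, all tested, S100b alone fell (-0.74, adjusted p = 0.000435), and the summed level was 12.8 to 13.6 against 8.50 to 10.8 FPKM, while the defining marker Sox10 was not called. Of 5 endothelial markers tested, Cdh5, Tek and Tie1 fell, and the sum was 33.8 to 37.0 against 26.2 to 27.6 FPKM. Of the 3 cardiomyocyte markers tested, Actc1 rose by 0.13 and Pln by 0.15 (the latter not called by DESeq2, adjusted p = 0.0813). Tnnt2, also tested, had a log2 fold change of -0.14 and was not called. The summed level over 8 markers was 6812 to 6885 against 7345 to 7569 FPKM. Almost all of it was Actc1 (6659 against 7237 FPKM), and 5 of the 8 had fewer than 10 counts in every library. Of 6 fibroblast markers tested, Lum (0.59) and Postn (1.10) rose, and the summed level was 4149 to 4987 against 3994 to 4129 FPKM. Col1a1, the most abundant of them, had a mean of 2447 against 1890 FPKM without overlap and a log2 fold change of -0.37 (adjusted p = 0.0869 by edgeR and 0.0137 by DESeq2). No marker of macrophages (4 tested, sum 45.0 to 48.4 against 43.2 to 49.3 FPKM) or of smooth muscle and pericytes (3 tested, sum 388 to 390.1 against 380.5 to 397 FPKM) was called in the annotated genes. Almost all of the latter sum was Cnn1 (369 against 366 FPKM), and 4 of the 7 markers had fewer than 10 counts in every library. The transcript over the pericyte gene Rgs5, however, rose by 0.55 and that over the fibroblast gene Dcn by 1.00 (not called by DESeq2, adjusted p = 0.103). The part of these cell types in the channel results was not tested.

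Sequences upstream of the start are shown for the sodium channel features that fell and had an entry, Scn4a and Scn7a, so that elements they share can be looked for. They are the 250 bases before the RefSeq start in GRCr8, a later build than that of the counts, and lie at chr10:91796325-91796574 and chr3:71846285-71846534, both on the minus strand. Capitals mark matches, on either strand, to the GC box GGGCGG bound by Sp factors or to the EGR1 motif GCGNGGGCG, which can share letters.
Scn4a: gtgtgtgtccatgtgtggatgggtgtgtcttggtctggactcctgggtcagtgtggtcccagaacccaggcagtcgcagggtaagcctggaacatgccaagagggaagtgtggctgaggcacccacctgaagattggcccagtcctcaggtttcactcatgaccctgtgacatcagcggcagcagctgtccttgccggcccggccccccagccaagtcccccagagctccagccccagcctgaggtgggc
Scn7a: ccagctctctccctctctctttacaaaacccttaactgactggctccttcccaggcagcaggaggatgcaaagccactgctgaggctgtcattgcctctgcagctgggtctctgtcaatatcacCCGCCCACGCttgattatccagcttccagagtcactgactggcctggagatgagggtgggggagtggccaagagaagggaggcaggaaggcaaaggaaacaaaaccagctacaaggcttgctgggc
Scn4a held neither motif, and Scn7a held both as one overlapping stretch. Of 33461 such windows in the RefSeq table, 30.5% held the GC box and 4.29% the EGR1 motif. Among the 48 windows of the 46 tested channel genes with an entry, 26 held the GC box (54.2%) and 7 the EGR1 motif (14.6%), and the median GC content was 61.8% against 51.2% for all windows. The TATA box TATAAA was found in 1 of the 48 windows and in 12.9% of all. The motifs of AP-1 (TGANTCA, 6.34% of all windows), MEF2 (CTANNNNTAG, 3.41%) and REST (the half-site TCAGCACC, 1.25%) were each found in 1 of the 48, that of GATA factors (AGATAA, 10.3%) in 2 and that of NFAT (TGGAAA, 19.7%) in 5, and the cyclic AMP response element (TGACGTCA, 1.59%) in 0. Scn1a had no entry. A match describes letters and is no evidence of binding.

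Calcium channel genes moved little and in both directions. Cacna1b (Cav2.2, the N-type channel of nerve endings; minus strand, chr3:1740024-1924827) had 20.6, 23.7 and 24.6 CPM against 17.7, 18.9 and 17.1 CPM. It fell without overlap, with a log2 fold change of -0.36 (edgeR, SE 0.101, adjusted p = 0.0178). The call did not hold without si-DYRK1A replicate 1 (adjusted p = 0.0611), si-DYRK1A replicate 3 (adjusted p = 0.0812), si-NC replicate 2 (adjusted p = 0.05, just over the threshold) or si-NC replicate 3 (adjusted p = 0.0707), each from edgeR. Of the other alpha1 subunits tested, Cacna1e (R-type, 0.32, adjusted p = 0.0703), Cacna1s (the skeletal muscle L-type pore, -0.35, adjusted p = 0.0868) and Cacna1a (P/Q-type, 0.22, adjusted p = 0.118) had groups without overlap that missed the threshold. Cacna1d (Cav1.3, an L-type pore of the sinoatrial node) had a log2 fold change of -0.22 with overlapping groups. An unstranded unannotated feature with 817 counts lies within Cacna1e, so that its counts are uncertain. None of the alpha2delta (1 tested), beta (2 tested) and gamma (3 tested) subunits was called, with log2 fold changes from -0.20 for Cacnb1 to 0.32 for Cacng4.

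The calcium channel genes that the working heart relies on most were counted under unannotated transcripts. Cacna1c (Cav1.2, the L-type pore of cardiomyocytes) had 1 count in its annotated gene, against 4653 in a transcript of the same strand covering all of it (chr4:150635794-151269278), annotated in the files with an ion transport domain and a voltage-gated calcium channel domain. That transcript had 64.4, 61.8 and 58.4 CPM in the si-NC libraries and 82.1, 72.5 and 73.5 CPM in the si-DYRK1A libraries. It was higher without overlap, with a log2 fold change of 0.31 (edgeR, SE 0.0658, adjusted p = 0.00251), a level 1.24 times that of the control. Cacna2d1, the alpha2delta subunit that helps carry the L-type pore to the membrane, went the other way. The transcript covering it (chr4:15706702-16130902) held 99.7% of the counts at the locus, with 141, 148 and 157 CPM against 125, 123 and 122 CPM. Its log2 fold change was -0.27 (edgeR, SE 0.0508, adjusted p = 0.000750), again without overlap. Both calls held with every library left out.

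The T-type pore Cacna1g had 7 to 20 counts per library in its annotated gene and a log2 fold change of 0.17 with overlapping groups. A transcript covering that gene alone (1553 counts) had 21.4, 21.9 and 18.1 CPM against 26.0, 25.1 and 25.3 CPM, with a log2 fold change of 0.32 (edgeR, SE 0.0970, adjusted p = 0.0283). DESeq2 did not call it (adjusted p = 0.119). This call was lost without any single library except si-NC replicate 2, with adjusted p of 0.0940, 0.0740 and 0.0735 without si-DYRK1A replicates 1, 2 and 3, and of 0.0512 and 0.141 without si-NC replicates 1 and 3. The transcript over Cacna1h, the other cardiac T-type pore, had 23 to 45 counts and a log2 fold change of 0.41 (adjusted p = 0.355). The transcript over Cacnb2, the main cardiac beta subunit, also covers a small nuclear RNA gene and had a log2 fold change of 0.20 (adjusted p = 0.135). The upstream windows of Cacna1c (chr4:154051749-154051998, minus strand) and Cacna1b (chr3:27944286-27944535, minus strand) are shown, from GRCr8 and with the same capitals, because these alpha1 genes were called in opposite directions.
Cacna1c: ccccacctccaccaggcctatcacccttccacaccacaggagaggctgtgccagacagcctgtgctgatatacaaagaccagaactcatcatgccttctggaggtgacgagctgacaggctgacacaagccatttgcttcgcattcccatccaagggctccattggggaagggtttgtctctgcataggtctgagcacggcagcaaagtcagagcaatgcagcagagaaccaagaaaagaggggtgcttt
Cacna1b: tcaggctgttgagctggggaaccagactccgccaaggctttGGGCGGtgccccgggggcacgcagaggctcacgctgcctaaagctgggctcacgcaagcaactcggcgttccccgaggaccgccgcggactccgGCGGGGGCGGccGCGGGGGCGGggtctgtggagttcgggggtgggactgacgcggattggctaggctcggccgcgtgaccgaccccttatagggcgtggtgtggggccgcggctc
The Cacna1c window held neither motif, with a GC content of 54.4%, and the Cacna1b window held both, with a GC content of 72.0%.

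Among the voltage-gated potassium channels, the Kv4 pore genes Kcnd3 and Kcnd1 were called in opposite directions by edgeR. DESeq2 did not call Kcnd1 (adjusted p = 0.102). Kcnd3 (plus strand, chr2:207923775-208140727) had 57.8, 56.7 and 61.0 CPM in the si-NC libraries and 66.5, 69.3 and 73.6 CPM in the si-DYRK1A libraries. It rose without overlap, with a log2 fold change of 0.25 (edgeR, SE 0.0643, adjusted p = 0.00859), and of the libraries left out in turn only si-DYRK1A replicate 3 ended the call (adjusted p = 0.0714). Kcnd1 (Kv4.1; minus strand, chrX:15506724-15520712) was the less abundant, at 2.88 FPKM against 9.34 FPKM for Kcnd3 over all libraries. Its levels were 13.8, 13.4 and 10.5 CPM against 7.39, 10.4 and 9.17 CPM, which nearly touch. The log2 fold change was -0.49 (edgeR, SE 0.152, adjusted p = 0.0334). This call did not hold without si-DYRK1A replicate 1 (adjusted p = 0.162), si-DYRK1A replicate 3 (adjusted p = 0.0786), si-NC replicate 1 (adjusted p = 0.135) or si-NC replicate 2 (adjusted p = 0.0988), each from edgeR.

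Over the 21 Kv pore subunits tested, 15 log2 fold changes were positive and the median was 0.18. Nearest to the threshold were Kcnc1 (Kv3.1), with 5.18, 3.97 and 4.10 against 5.54, 6.87 and 7.10 CPM and an adjusted p of 0.0535, and Kcna7 (Kv1.7), with 7.48, 5.24 and 6.52 against 4.31, 3.11 and 5.28 CPM and an adjusted p of 0.0670. Kcnq1 had 45.9, 46.3 and 45.0 CPM against 41.0, 40.7 and 39.2 CPM. The spread within each group was small and the groups did not overlap, but the log2 fold change of -0.18 missed the threshold (adjusted p = 0.0889). Kcna4 (Kv1.4, the slow transient outward pore) had a log2 fold change of -0.01 with a 95% confidence interval of -0.48 to 0.46. Kcnh2 (hERG, the pore of the rapid delayed rectifier) had 0.34 in its annotated gene and 0.42 in the transcript covering it, neither called. Of the 5 auxiliary subunits tested, 0 were called and 4 had negative values, from -0.59 for Kcne3 to 0.16 for Kcne2. The transcript over Kcne4, an inhibitory partner of Kcnq1, held 5417 counts and had a log2 fold change of 0.11 (adjusted p = 0.249). The upstream window of Kcnd3 (chr2:195626066-195626315 of GRCr8, plus strand) is given since it is the most abundant channel gene that rose.
Kcnd3: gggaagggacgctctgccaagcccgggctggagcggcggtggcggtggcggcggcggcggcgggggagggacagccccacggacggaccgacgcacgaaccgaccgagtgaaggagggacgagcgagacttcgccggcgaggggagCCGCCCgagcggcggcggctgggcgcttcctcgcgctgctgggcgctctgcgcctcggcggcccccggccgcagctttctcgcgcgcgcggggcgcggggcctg
It held the GC box and not the EGR1 motif, and its GC content was 79.6%. Kcnd1 had no entry.

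Of the 8 calcium- and sodium-activated potassium channel genes tested, Kcnt1 was called. Kcnt1 (Slack, a sodium-activated channel; plus strand, chr3:3310954-3365340) had 6.52, 4.40 and 5.52 CPM against 3.25, 4.05 and 2.86 CPM. The lowest si-NC library lay just above the highest si-DYRK1A library. The log2 fold change was -0.69 (edgeR, SE 0.220, adjusted p = 0.0359), and the call did not hold without si-DYRK1A replicate 1 (adjusted p = 0.103), si-DYRK1A replicate 3 (adjusted p = 0.155), si-NC replicate 1 (adjusted p = 0.167) or si-NC replicate 3 (adjusted p = 0.0716), each from edgeR. Its paralog Kcnt2 had a log2 fold change of -0.59 (adjusted p = 0.154) with overlapping groups. The abundant Kcnn4 and Kcnmb4 had 0.16 (adjusted p = 0.246) and 0.13 (adjusted p = 0.623).

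None of the 9 inward rectifiers tested was called, and their median was 0.01. Kcnj2 (Kir2.1, which holds the resting potential of ventricular cells) had 8.44, 9.64 and 8.61 CPM against 12.3, 9.13 and 10.4 CPM and a log2 fold change of 0.25 (95% confidence interval -0.06 to 0.56). Its partner Kcnj12 (Kir2.2) had -0.04 with an interval of -0.31 to 0.22. Kcnj8 had 21.6, 19.2 and 19.0 against 26.1, 24.9 and 21.8 CPM, groups that did not overlap but stayed short of the threshold (0.29, adjusted p = 0.0584). Kcnj11 (Kir6.2, the ATP-sensitive pore of ventricular cells) had -0.04 (interval -0.27 to 0.20). The subunits of the acetylcholine-activated channel, Kcnj3 and Kcnj5, had -0.19 and 0.14, neither called.

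Both remaining genes that rose were two-pore-domain potassium channels, which carry background current. Kcnk2 (TREK-1, opened by membrane stretch; minus strand, chr13:107690087-107886476) had 1.34, 3.21 and 2.59 CPM in the si-NC libraries and 3.78, 6.97 and 6.40 CPM in the si-DYRK1A libraries. The groups did not overlap, and replicate 1 was the lowest library of each. On the log2 scale the difference came to 1.24 (edgeR, SE 0.294, 95% confidence interval 0.62 to 1.87, adjusted p = 0.00822), a level 2.37 times that of the control. Without si-DYRK1A replicate 2 the adjusted p was 0.0542. An unannotated transcript of the same strand overlaps Kcnk2 with 70 counts, so that the count of the annotated gene (274) is uncertain. The sum of both was 3.01 ± 1.20 against 7.13 ± 0.820 CPM (SD, n = 3), with a log2 fold change of 1.22 (edgeR, adjusted p = 0.00154).

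Kcnk15 (TASK-5, a family member that forms no current on its own; plus strand, chr3:160231914-160238132) had 1.44, 1.95 and 2.17 CPM against 3.43, 3.11 and 3.38 CPM. It was higher without overlap, with a log2 fold change of 0.82 (edgeR, SE 0.266, adjusted p = 0.0389). With 15 to 39 counts per library, this call was lost without any single library except si-NC replicate 3, with adjusted p of 0.103, 0.0809 and 0.109 without si-DYRK1A replicates 1, 2 and 3, and of 0.137 and 0.0730 without si-NC replicates 1 and 2, and it was also lost without a filter on low counts (adjusted p = 0.0531). Kcnk3, the most abundant of the family, had 38.4, 49.1 and 43.0 against 47.6, 50.9 and 48.3 CPM and missed the threshold (0.17, adjusted p = 0.193). Over the 9 genes tested the median log2 fold change was 0.17.

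Neither pacemaker channel tested was called. Hcn2 had 27.6, 29.2 and 25.2 CPM against 33.8, 28 and 33.7 CPM, overlapping groups with a log2 fold change of 0.22 (adjusted p = 0.125). Hcn3 had -0.25 (adjusted p = 0.651). Hcn4, the main channel of the sinoatrial node, had 14 counts in its annotated gene and 55 in the transcript covering it, and their sum gave a log2 fold change of 0.82 (adjusted p = 0.255).

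**Figure D3:**
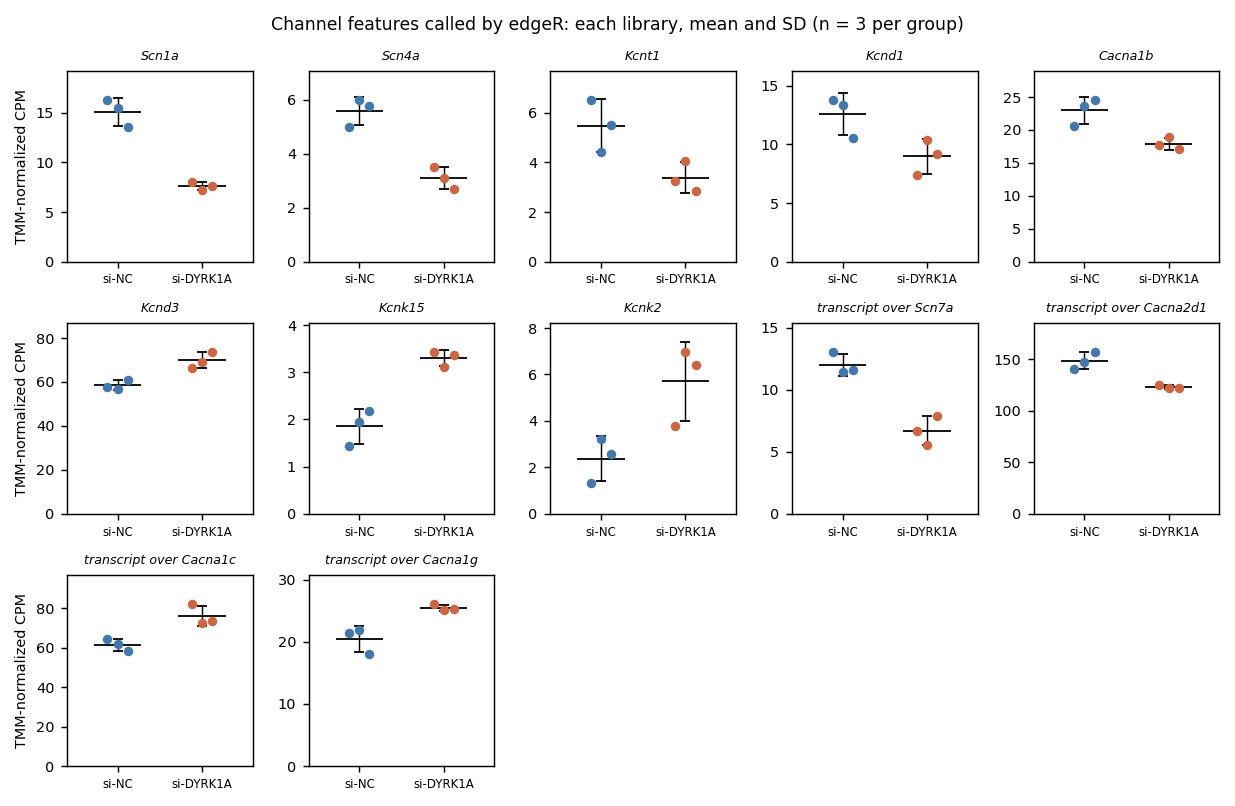
TMM-normalized CPM in each library for 8 channel genes called by edgeR and for the 4 called unannotated transcripts that cover a single channel gene, with the mean and SD of each group (n = 3) and axes that start at 0. In each panel the 3 si-NC libraries and the 3 si-DYRK1A libraries do not overlap. The group means of Scn1a, 15.1 and 7.62 CPM, lie far apart, whereas those of Kcnd3, 58.5 and 69.8 CPM, are close.

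In all, 23 of the 137 channel genes were covered over at least 50% of their length by a same-strand unannotated transcript, and 20 of them were among the 60 genes under the count minimum. A low count of such a gene does not show that it was not expressed. A covering transcript did not always hold the counts instead. The muscle actin Acta2 and the macrophage marker Cd68 had 0 counts in both the gene and the transcript covering it. For 18 of the genes a transcript covered that gene alone. Of these transcripts, 15 were tested and 4 called, those over Cacna1c and Cacna1g higher and those over Cacna2d1 and Scn7a lower. Over all unannotated transcripts, 682 of 5806 tested were called (11.7%). The 2 abundant transcripts over Kcne4 and Kcng2 (a silent Kv subunit, 1818 counts) were not called. The transcripts over Kcnj4, Kcnj14 and Kcnh3 also cover Ddx17, Grwd1 and Spats2 and carry no channel domain in the file annotation, so that they are no measure of those channel genes. With gene and transcript counts summed, 89 channel genes were tested, 5 rose and 8 fell. This share was near the 15.2% called over all features in the main fit, and the share over all features with summed counts is not given here.

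**Figure D4:**
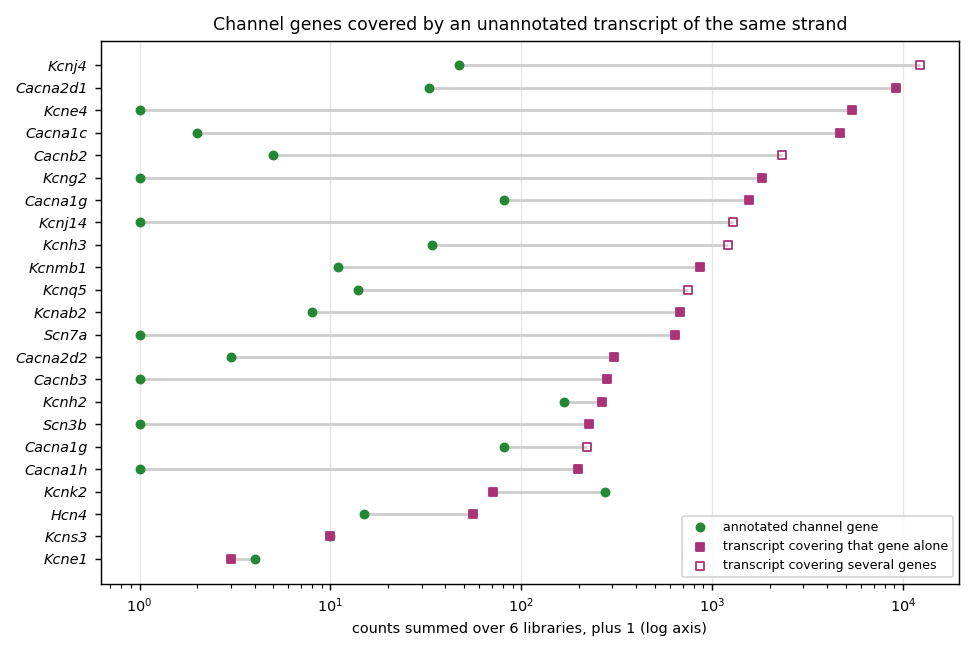
Counts over all 6 libraries (plus 1, log axis) in covered channel genes and in the unannotated transcript that covers each on the same strand, with filled squares where the transcript covers that gene alone and open squares where it covers several genes. For Cacna1c the gene has 1 count and the transcript 4653, whereas Kcnk2 has 274 counts in the gene and 70 in the transcript. Cacna1g appears under both of its transcripts.

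The other 40 genes under the minimum were not covered. Just inside the minimum lay Kcnb2 with 19, 8 and 6 against 18, 12 and 14 counts. Just outside lay Kcna5 (Kv1.5, the atrial ultrarapid rectifier) with 7, 2 and 8 against 14, 12 and 9 counts and Kcnq3 with 3, 7 and 3 against 18, 12 and 9. Kcnip2, the cardiac partner of Kv4 pores, had 0 to 4 counts per library. Of the 137 genes, 12 had 0 counts in every library.

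Genes that bind or control these channels were taken from lists. Of 36 listed channel partners found in the table, 17 were tested, 2 rose and 4 fell, with a median of -0.05, where 15.2% of all features tested and 17.3% of the annotated genes were called. Fgf12, an intracellular factor that binds sodium channel pores, had 15.8, 14.5 and 15.2 CPM against 22.1, 22.3 and 22.8 CPM. These levels were tightly grouped and apart (0.56, SE 0.0991, adjusted p = 0.000382, edgeR). Gpd1l, a regulator of sodium channel delivery, fell from 111, 116 and 111 to 95.4, 92.1 and 88.8 CPM (-0.29, adjusted p = 0.000432). Stac2, a binding protein of L-type calcium channels, fell from 15.3, 13.6 and 13.8 to 6.86, 8.85 and 9.69 CPM (-0.75, adjusted p = 0.000825). Gem, a small GTPase that inhibits L-type current, had a log2 fold change of -0.38 (adjusted p = 0.00572, and 0.0543 without si-DYRK1A replicate 3).

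Among the partners, the calls of Abcc8 and Cav3 also depended on single libraries. Abcc8, the SUR1 subunit of ATP-sensitive channels, rose by 0.36 (adjusted p = 0.0310, and 0.119 by DESeq2), a call lost without any single library except si-DYRK1A replicate 2, with adjusted p of 0.175 and 0.132 without si-DYRK1A replicates 1 and 3 and of 0.0883, 0.0629 and 0.0691 without si-NC replicates 1, 2 and 3. The caveolar protein Cav3 fell by 0.15 (adjusted p = 0.0272), a call lost without si-DYRK1A replicate 1 or 3 (adjusted p = 0.0841 and 0.135) or si-NC replicate 1 or 3 (adjusted p = 0.0516 and 0.0589). Ank2, an anchor of channels and exchangers, had 40.8, 39.4 and 38.4 against 25.1, 26.2 and 24.3 CPM in the transcript covering it (-0.65, adjusted p = 6.71e-06) and a log2 fold change of -0.39 in the gene itself (adjusted p = 0.175).

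Of 21 listed transcription factors of cardiac channel genes, 11 were tested, 2 rose and 0 fell, with a median of 0.14. Irx4, a ventricular factor, rose by 0.27 (adjusted p = 0.00537). Of 14 other excitability genes, 10 were tested and 2 rose, with a median of 0.28. Over all features tested, 15.2% were called, and 17.3% of the annotated genes, near the share called in either list. The excitability genes that rose were the gap junction genes of the working heart and the conduction system, Gja1 (connexin 43) and Gja5 (connexin 40). Gja1 had 335, 335 and 339 CPM against 502, 467 and 471 CPM (0.51, SE 0.0429, adjusted p = 3.32e-08, edgeR), and Gja5 had 83.7, 84.4 and 84.9 CPM against 118, 118 and 123 CPM (0.50, SE 0.0501, adjusted p = 3.73e-07, edgeR). Both calls held with every library left out.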

How the data were processed

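RNA-seq was performed on 6 libraries of rat neonatal cardiomyocytes, 3 given si-NC and 3 given si-DYRK1A, grouped by their titles. According to the methods of the study, reads were mapped to Rnor_6.0 with HISAT2. The labels instead name Bowtie and a mouse build, which the rat identifiers in the table do not bear out, and they give a TruSeq kit where the methods give NEBNext and rats of 1 day where the methods allow a wider range. The sources used here do not give the counting tool, the annotation release or how strand was treated. Without strand, reads of overlapping genes cannot be told apart.

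The authors deposited raw counts per gene, unnormalized, and FPKM, a level per gene length and library size. The gene length column was not used in tests, 0 columns of values were unmatched, and the deposited annotation columns gave positions, names and protein domains. The channel genes, the gene lists and the rule for named genes (called channel genes, the 10 with the highest FPKM, a set of cardiac action potential genes, and called list members) were chosen with earlier results of these data known. Results for certain genes are not reported here.

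Counts of all 43035 features were normalized by TMM and tested by quasi-likelihood in edgeR 4.0.16 under R 4.3.3 (robust fit, filterByExpr with a minimum count of 10, two-sided, Benjamini-Hochberg adjustment, threshold 0.05). The biological coefficient of variation was 8.82%. Libraries of a group differed beyond sampling noise (chi-square per degree of freedom 2.49 to 5.87), and each was counted as 1 sample. With 3 against 3 libraries, an exact permutation test of a single gene cannot give a p below 0.1 and was not used. The procedure was tested on simulated data. Alternatives were DESeq2 1.42.0, RLE size factors, library size only, other filters, a block for replicate number and omission of each library. Further alternatives were limma 3.58.1 on log2(FPKM + 1) and log2(FPKM + 0.1) for features above 0.5 FPKM in 3 libraries (the former also without that filter). A last alternative summed each gene with the unannotated transcripts that cover at least 50% of that annotated gene and of no other. Promoter windows of 250 bases were taken from RefSeq (GRCr8) by symbol, with 90 of the 137 genes matched. Depth limits precision: features that failed the filter were not compared.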

Additional observations from a re-analysis of the deposited data

How the results depend on the processing

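The counts of called channel genes depended on the test and on single libraries. Channel genes called higher numbered 3, and 0 by limma on log2(FPKM + 1), on log2(FPKM + 0.1) and on log2(FPKM + 1) without a filter, and 5 with gene and covering transcript counts summed, which added Cacna1c and Cacna1g. Channel genes called lower numbered 6, and 3 by DESeq2 (Scn1a and Scn4a among them), 1 by limma on log2(FPKM + 1) and on log2(FPKM + 0.1) (Scn1a in each) and 0 by limma on log2(FPKM + 1) without a filter. With a library left out in turn, 1 to 4 were called higher and 2 to 5 lower. The lowest count of higher calls came without si-DYRK1A replicate 2 (1, Kcnd3) and the lowest of lower calls without si-DYRK1A replicate 1 (2, Scn1a and Scn4a), with 3 lower calls without si-NC replicate 1. With RLE size factors the counts were 3 and 6, and with library size only 3 and 7 (Kcnq1 added). Without a filter on low counts they were 3 and 7 (Kcnq3 in place of Kcnk15, Kcna7 added). With the minimum of 10 counts in 3 libraries they were 3 and 7 (Kcnk7 added). Kcnk7 reached that minimum only through the si-NC group, so that a lower level under si-DYRK1A was a condition of its being tested.

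Replicate numbers are shared by the groups, but same-numbered libraries did not deviate together (r = 0.0578, -0.0261 and -0.00409 for the numbers 1, 2 and 3). With 3 libraries per group, this cannot exclude that libraries of the same number share a preparation. With the replicate number as a block, 3 channel genes were called higher and 7 lower (Kcna7 added), and Cav3 lost its call (adjusted p = 0.0582).

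Of 43 named genes and transcripts, 23 were called, a share set in part by a naming rule that takes called features. Fgf12, Gpd1l, Gja1 and Gja5 stayed called under all alternatives run. Scn1a was missed only by limma on log2(FPKM + 1) without a filter (adjusted p = 0.0848). No called value changed sign. Among the values not called, 5 log2 fold changes changed sign when a library was left out. They ranged from -0.14 (without si-NC replicate 2) to 0.61 for Cacna1g, from -0.10 to 0.10 (without si-DYRK1A replicate 1, and 0.06 without si-NC replicate 2) for Kcna4, from -0.011 (without si-NC replicate 2) to 0.21 for Kcnmb4, from -0.15 to 0.032 (without si-NC replicate 2) for Kcnj11 and from -0.12 to 0.059 (without si-NC replicate 1) for Kcnj12. The cause of these changes was not tested.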

Other observations

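At Kcnk2 and Kcnh2, where both the annotated gene and the covering transcript held counts, the si-DYRK1A libraries divided their counts differently between the 2 features. This was noticed after the values were seen. In the si-DYRK1A libraries, Kcnk2 had 3.78, 6.97 and 6.40 CPM in the gene and 2.46, 0.848 and 0.952 CPM in the transcript, and the library with the lowest level in the gene had the highest in the transcript. The si-NC libraries did not show this. There the Kcnk2 transcript had 0.288, 0.592 and 1.00 CPM, and replicate 1 was the lowest library in both features. Kcnh2 had 3.87, 2.45 and 1.99 CPM in the gene and 3.08, 5.27 and 5.02 CPM in the transcript of the si-DYRK1A libraries. For Kcnh2 the SD of the si-DYRK1A group was 0.980 CPM for the gene, 1.20 CPM for the transcript and 0.445 CPM for their sum (n = 3). In the si-NC group the SD was 0.502 CPM for the transcript and 0.791 CPM for the sum. The sum for Kcnh2 was 5.54 ± 0.791 CPM in the si-NC and 7.21 ± 0.445 CPM in the si-DYRK1A libraries (log2 fold change 0.38, adjusted p = 0.159 by edgeR).

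Further listed genes were called under a covering transcript and not in the annotated gene. Tbx20, a cardiac transcription factor, had 479, 518 and 482 CPM against 626, 569 and 591 CPM (log2 fold change 0.27, adjusted p = 0.000239). Fgf13, a sodium channel partner of the same family as Fgf12, had 3.36, 3.13 and 3.76 against 1.5, 2.73 and 1.21 CPM in the transcript (-0.92, adjusted p = 0.0378) and 0.16 in the gene itself (adjusted p = 0.741). The transcript over Calm3, a calmodulin gene, had a log2 fold change of -0.16 (adjusted p = 0.0124) and that over Mef2c, a muscle transcription factor, 0.50 (adjusted p = 0.0462). The transcript over Stac, which also covers a 5S ribosomal RNA gene, had 0.64 (adjusted p = 0.0046). That over Ank3, which also covers a small nucleolar RNA gene, had 0.46 (adjusted p = 0.0419). Both went the other way from Stac2 and Ank2. These p-values are from edgeR with Benjamini-Hochberg adjustment. DESeq2 also called Tbx20, Calm3 and Stac but not Fgf13 (adjusted p = 0.131), Mef2c (adjusted p = 0.185) or Ank3 (adjusted p = 0.138).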
